A study of Mus musculus with 4 samples.

Results

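Neutrophils of MC38 tumours were the cells examined here, in single-cell RNA sequencing of CD45-positive immune cells sorted from tumours that grew under the skin of 8-week-old mice. MC38 is a mouse colon carcinoma line. A cell was taken as a neutrophil when it held at least 20 unique molecular identifiers (UMIs, each standing for 1 captured RNA molecule) of S100a8 and S100a9 together, at least 1 of Csf3r and at least 1 of Cxcr2 and Retnlg together. It also had to hold at most 1 UMI of the Cd3 genes, at most 1 of Csf1r, and fewer than 10 C1q UMIs per 10000. The rule kept 84 cells of 39906 that passed the quality limits, which were a minimum of 300 genes and of 500 UMIs, with no more than 15% of UMIs from mitochondrial genes. There were 2 libraries from Trim25 cKO mice, in which Trim25 had been deleted conditionally (cKO-1 and cKO-2), and 2 from WT mice (WT-1 and WT-2). All of them carried MC38 tumours, after an injection of 1e+05 cells. The series title places the loss of TRIM25 in T cells, and the labels name neither the Cre driver nor the number of animals behind a library. The labels give the tissue as colon and the cell type as a colorectal tumour line, whereas the design text describes sorted immune cells. Nothing says that the libraries came from separate mice, so the p-values reflect the spread among these 4 libraries, and that spread could be technical.

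Neutrophils are short-lived granulocytes that mature in the bone marrow under the cytokine G-CSF, whose receptor is encoded by Csf3r. They pack proteases and antimicrobial proteins into granules as precursors, enter the blood, and follow chemokines such as CXCL2 through the receptor CXCR2 into inflamed tissue. In tumours they are known both as killers of cancer cells and as suppressors of T cells. They carry little RNA for a leukocyte, so droplet methods recover few transcripts from each.

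The neutrophil sums held 82435 UMIs in cKO-1 and 31226 in cKO-2, against 57610 in WT-1 and 77496 in WT-2. At these depths a gene with no count could still reach 36.4 and 96.1 CPM (counts per 1000000 neutrophil UMIs of the library) in cKO-1 and cKO-2, against 52.1 and 38.7 CPM in WT-1 and WT-2, counting error alone being covered. The median neutrophil had 2563 and 2288 UMIs in cKO-1 and cKO-2, against 2467 and 2180 in WT-1 and WT-2. Over all cells of a library the medians were 7796 to 10017. The barcodes shared by any pair of libraries numbered 42 to 59, and none of them was a neutrophil. Trim25, the targeted gene, had 243 and 288 CPM in cKO-1 and cKO-2, against 156 and 258 CPM in WT-1 and WT-2 in neutrophils, so the libraries overlapped (edgeR's log2 fold change 0.40 ± 0.60, adjusted p = 0.997). In Cd3-positive cells it had 51.9 and 55.7 CPM in cKO-1 and cKO-2, against 64.1 and 63.8 CPM in WT-1 and WT-2. The labels do not say which exons were deleted, and if reads come from the 3′ end, as the labelled kit implies, they may lie outside them, so these values do not check the genotype.

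Of the 84 cells, 6 held 6609 to 18563 UMIs, and the other 78 held 631 to 4179. These 6 deep cells contributed 27.1% of all neutrophil UMIs, and 1 of them alone made up 59.4% of the cKO-2 sum. That cKO-2 cell carried 41 UMIs of Siglech and 72 of Tcf4, known markers of plasmacytoid dendritic cells, and was the only neutrophil with a Scrublet doublet score above 0.2. A WT-2 cell of 14260 UMIs carried 220 UMIs of the 7 monocyte markers, and a WT-1 cell of 9848 UMIs carried 37 UMIs of Gzma and 42 of Ccl5, both made by cytotoxic lymphocytes. A second WT-1 cell held 21 UMIs of S100a4 and 19 of Ccr2. The deep cKO-1 cell had 315 UMIs of S100a8 and S100a9, the most of the 6, and 7 of the monocyte markers. Leaving the deep cells out left 73580 UMIs from 28 cells in cKO-1 and 12663 from 6 in cKO-2, against 41153 from 17 in WT-1 and 53918 from 27 in WT-2. Of the 1342 genes abundant enough to be tested between the genotypes, 143 had both cKO libraries above both WT libraries, and 80 of these also had them above without the deep cells; 250 had both cKO libraries below, and 156 of these also did without them. CPM values below include the deep cells, and where a gene's CPM is printed for each library and its genotypes overlapped in one case and not in the other, the values without them follow.

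The rule's own genes describe the cells and are not results. The sum of S100a8 and S100a9, the subunits of calprotectin, had a median of 181 UMIs per cell in cKO-1 (34 to 539) and 52 in cKO-2 (22 to 256), against 105 in WT-1 (21 to 309) and 69 in WT-2 (23 to 338). There were 7 cells just inside the limit, with 20 to 29 UMIs, and 6 cells that met every other condition had 10 to 19. The C1q limit removed more cells than any other single condition: 46 cells failed it alone, compared with 36 for S100a8 and S100a9, 21 for Csf1r, 13 for Cxcr2 and Retnlg, 5 for Csf3r and 4 for the Cd3 genes.

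Neutrophils were rare in every library, and their share did not separate the genotypes. They made up 0.353% of cells in cKO-1 (29 of 8205, exact binomial 95% interval 0.237 to 0.507%) and 0.0746% in cKO-2 (7 of 9387, 0.0300 to 0.154%), against 0.186% in WT-1 (19 of 10222, 0.112 to 0.290%) and 0.240% in WT-2 (29 of 12092, 0.161 to 0.344%). The cKO libraries held both the highest and the lowest share, with both WT libraries between them. The mean was 0.214 ± 0.197% in cKO and 0.213 ± 0.0382% in WT (SD, n = 2 each), a difference of 0.00116 percentage points (two-sided exact permutation test, p = 1, where the smallest possible p is 0.333).

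**Figure D1:**
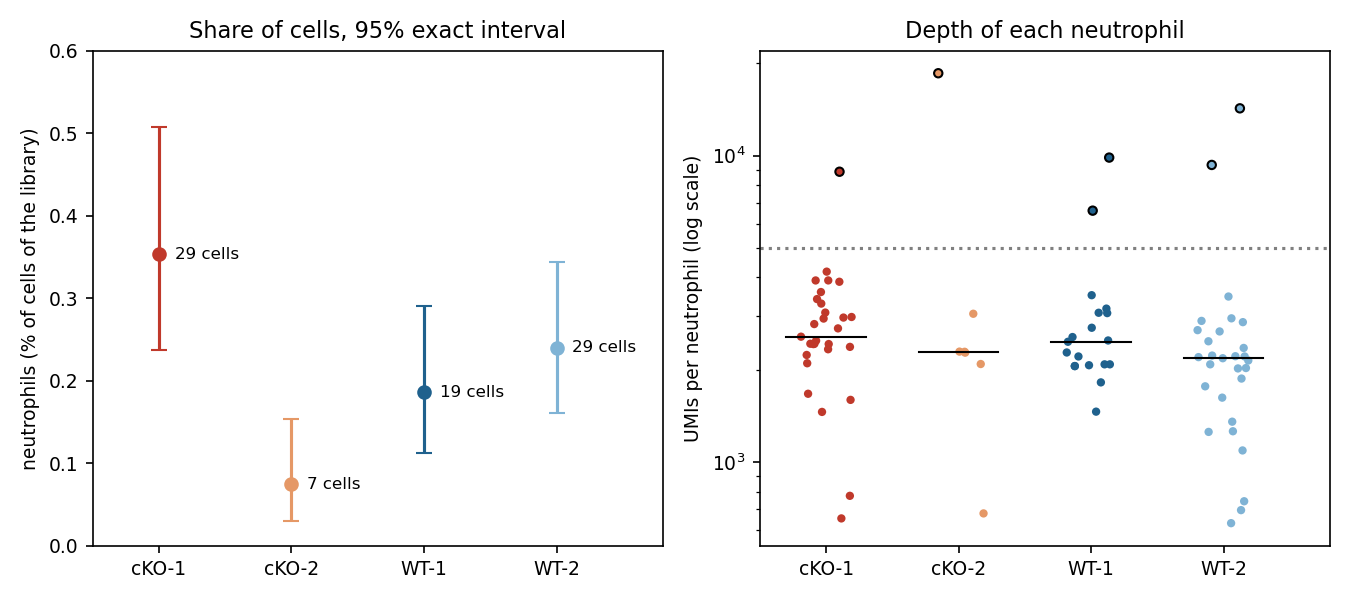
Left, neutrophils as a percentage of the cells of each library, with 95% exact binomial intervals; right, UMIs of each neutrophil on a log scale, with the library median as a bar and cells over 5000 UMIs outlined. The share was 0.353% in cKO-1 and 0.0746% in cKO-2, on either side of the 0.186% and 0.240% of WT-1 and WT-2, and 6 cells stand above the dotted line.

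Markers that the rule did not use were present as well. All 12 of them had a UMI in neutrophils, and together they reached 18269 and 11369 CPM in cKO-1 and cKO-2, against 14668 and 13394 CPM in WT-1 and WT-2, while monocytes of the same libraries had 507 to 906 CPM. Without the deep cells the sum was 19149 and 19585 CPM in cKO-1 and cKO-2, against 17885 and 18083 CPM in WT-1 and WT-2. Cd177, a neutrophil surface protein, was sparse: it had 5 UMIs in 3 neutrophils, 12.1 and 96.1 CPM in cKO-1 and cKO-2, against 0 and 12.9 CPM in WT-1 and WT-2, and 13.8 to 16.7 CPM in monocytes. Il1r2, the decoy receptor for interleukin-1, was found in 80.8% of neutrophils once each cell was thinned to 1000 UMIs (92.9% unthinned), in 8.06% of monocytes and in 2.54% of Cd3-positive cells. Hdc, which makes histamine, was found in 67.9% of thinned neutrophils (84.5% unthinned), against 1.35% of monocytes and 0.410% of Cd3-positive cells. Ly6g, the gene behind the antibody most used to define mouse neutrophils, had a UMI in 13.1% of neutrophils unthinned and 5.13% thinned, against 0.0205% of thinned Cd3-positive cells. Thinning left 78 neutrophils, since shallower cells were left out. All 6 mast cell and basophil markers were at 0, and of 6 eosinophil markers only Siglecf had a UMI. Monocyte markers summed to 1201 and 1825 CPM in cKO-1 and cKO-2, against 1788 and 4207 CPM in WT-1 and WT-2. Without the deep cells these sums were 1250 and 1264 CPM in cKO-1 and cKO-2, against 1361 and 1391 CPM in WT-1 and WT-2.

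Set beside monocytes, blood-derived phagocytes chosen from the same libraries by Csf1r with Ly6c2 or Ccr2, neutrophils differed most in the genes that follow. The 2 classes were chosen by genes of the same cells, so these values are a description with no test. G0s2, an inhibitor of fat breakdown and a known neutrophil gene, had 2281 and 3106 CPM in cKO-1 and cKO-2, against 3679.9 and 2078 CPM in WT-1 and WT-2 in neutrophils, and 1.34 to 3.29 CPM in monocytes. Mmp9, a gelatinase stored in granules, had 509 and 416 CPM in cKO-1 and cKO-2, against 590.2 and 323 CPM in WT-1 and WT-2, and 0.148 to 0.861 CPM in monocytes. Il1f9, which encodes the interleukin-1 family cytokine IL-36 gamma, had 315 and 192 CPM in cKO-1 and cKO-2, against 521 and 465 CPM in WT-1 and WT-2, and 0.0996 to 0.418 CPM in monocytes. Each of these genes was higher in every neutrophil sum than in any monocyte sum. Stfa2l1, a stefin-like protease inhibitor, was found in 19 neutrophils at 255 and 256 CPM in cKO-1 and cKO-2, against 243 and 323 CPM in WT-1 and WT-2, and none of the 11738 monocytes had a UMI of it. The other genes among the 10 with the largest difference were Cstdc4, Asprv1, Chil1, Mrgpra2b, Wfdc21 and H2-Q10, at mean levels of 131 to 391 CPM in neutrophils and at most 0.827 CPM in monocytes. In the fit over 13179 genes, 3.51% were higher and 7.09% lower in neutrophils at an adjusted p under 0.05, which the choice of the cells shaped.

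**Figure D2:**
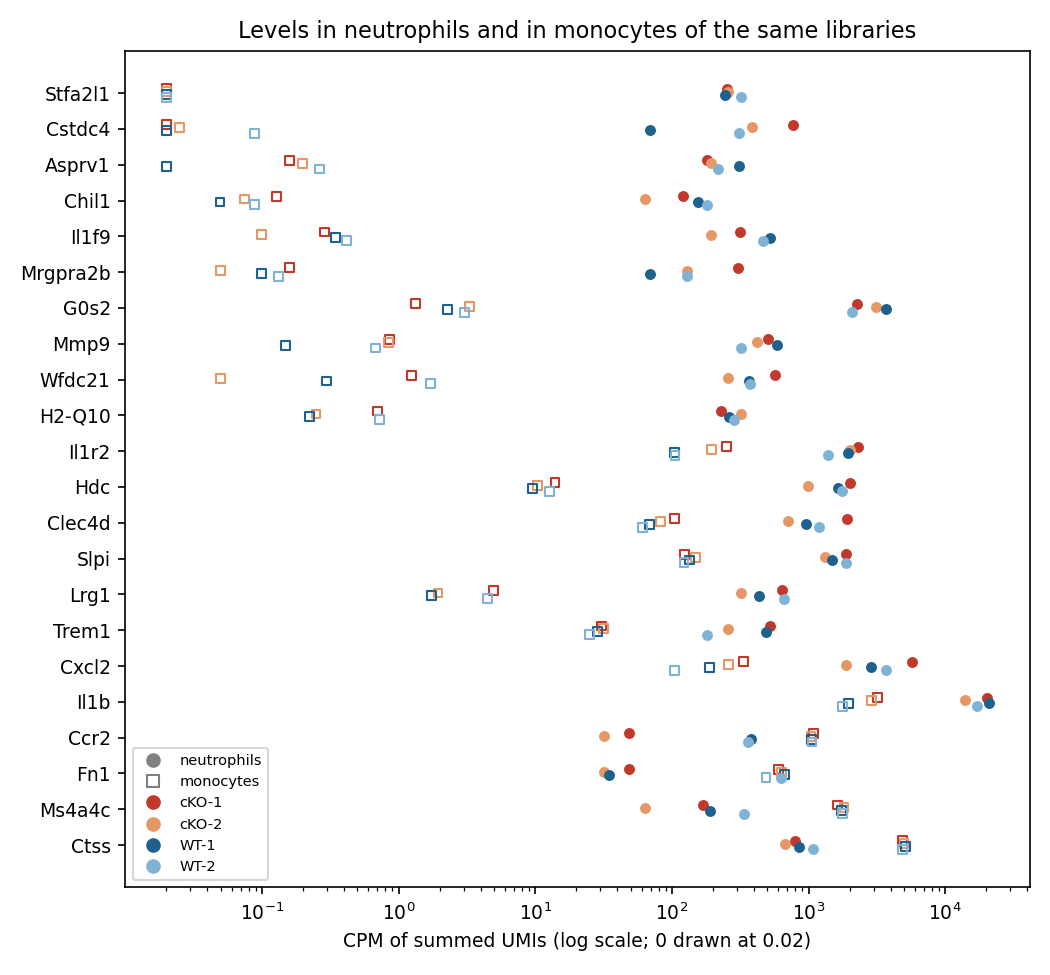
CPM of the summed UMIs on a log scale for 22 genes, in neutrophils (filled circles) and in monocytes (open squares), with 1 colour per library and a value of 0 drawn at 0.02. G0s2 lies between 2078 and 3680 CPM in neutrophils and between 1.34 and 3.29 CPM in monocytes. Of the 4 monocyte genes at the bottom, Ccr2, Ms4a4c and Ctss lie to the right in monocytes in every library. Fn1 does so except in WT-2, where it has 632 CPM in neutrophils and 488 CPM in monocytes.

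The cells had transcripts of mature neutrophils, and several granule genes of precursors had no UMI. Elane, Mpo, Ctsg, Ltf and Camp, which encode granule proteins made in bone marrow precursors, had no UMI in any of the 84 cells, and Ngp had 2 and 0 UMIs in cKO-1 and cKO-2, against 1 and 1 UMIs in WT-1 and WT-2. Other granule genes were present. Lcn2, an iron-scavenging protein, had 1068 and 673 CPM in cKO-1 and cKO-2, against 677 and 723 CPM in WT-1 and WT-2. Mmp8, a collagenase, had 679 and 128 CPM in cKO-1 and cKO-2, against 417 and 232 CPM in WT-1 and WT-2. For the whole precursor granule list, 8 of 15 members had a UMI, and 3 of 4 tested members had a fold change above 0 (median 0.28) in cKO over WT. Every cell had UMIs of the mature list, though its members varied, and 14 of 16 measured members had a UMI. Stfa2 and Stfa3 had none, and Stfa2l1 was found in 19 cells, Ifitm6 in 40 and Mmp9 in 48. Mxd1, a repressor that opposes MYC, was found in 84 of 84 cells at 2196 and 2018 CPM in cKO-1 and cKO-2, against 2169.8 and 2529 CPM in WT-1 and WT-2. Il1r2 had 2317 and 2018 CPM in cKO-1 and cKO-2, against 1944 and 1394 CPM in WT-1 and WT-2, so its libraries did not overlap, with cKO higher and without passing the test (edgeR's log2 fold change 0.47 ± 0.45, adjusted p = 0.997). Slpi, an inhibitor of elastase, had 1880.3 and 1313 CPM in cKO-1 and cKO-2, against 1475 and 1871 CPM in WT-1 and WT-2. In the mature list, 7 of 14 tested members had a fold change above 0 (median 0.01). Of the 16 proliferation genes, all had a UMI, and 14 had a mean of at most 118 CPM. Mki67, a marker of dividing cells, had 0 and 1 UMIs in cKO-1 and cKO-2, against 1 and 2 UMIs in WT-1 and WT-2. The other 2 members were common: Hmgb2, a chromatin protein, was found in 68 cells at 1189 and 640.5 CPM in cKO-1 and cKO-2, against 885 and 1471 CPM in WT-1 and WT-2, and H2afz, a histone variant, in 45 cells at 243 and 544 CPM in cKO-1 and cKO-2, against 903 and 645 CPM in WT-1 and WT-2. In that list 0 of 2 tested members had a fold change above 0 (median -0.61).

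Il1b was found in all 84 neutrophils. This proinflammatory cytokine had 20186 and 13995 CPM in cKO-1 and cKO-2, against 20795 and 17201 CPM in WT-1 and WT-2 in neutrophils, and 1767 to 3188 CPM in monocytes. The genotypes overlapped, with edgeR's log2 fold change -0.06 ± 0.41, adjusted p = 0.997. Cxcl2, a ligand of CXCR2 and so a signal to other neutrophils, was found in 64 cells at 5677 and 1889 CPM in cKO-1 and cKO-2, against 2881 and 3665 CPM in WT-1 and WT-2. Osm, a cytokine of the interleukin-6 family, had 716 and 1825 CPM in cKO-1 and cKO-2, against 816 and 1471 CPM in WT-1 and WT-2, of which 52 of the 57 UMIs in cKO-2 came from 1 cell. Osm had, once the deep cells were left out, 761 and 395 CPM in cKO-1 and cKO-2, against 1069 and 1799 CPM in WT-1 and WT-2, both cKO libraries then lying below both WT libraries. Ccl6, a chemokine of myeloid cells, had 1128 and 1441 CPM in cKO-1 and cKO-2, against 1840.0 and 1419 CPM in WT-1 and WT-2. Srgn, the core protein of a granule proteoglycan and 1 of the 20 most abundant transcripts of these cells, had 7921 and 4644 CPM in cKO-1 and cKO-2, against 6370.4 and 7019.7 CPM in WT-1 and WT-2. Il6 had no UMI. Over the secreted cytokine and chemokine list, 7 of 11 tested members had a fold change above 0 (median 0.19).

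Among genes linked to suppression of T cells, Ptgs2, the inducible enzyme of prostaglandin synthesis, had 3457 and 3555 CPM in cKO-1 and cKO-2, against 3836 and 1961 CPM in WT-1 and WT-2, and 200.4 to 478 CPM in monocytes. Arg2, the mitochondrial arginase, had 995 and 608 CPM in cKO-1 and cKO-2, against 851 and 761 CPM in WT-1 and WT-2, whereas Arg1 had 1 and 0 UMIs in cKO-1 and cKO-2, against 0 and 1 UMIs in WT-1 and WT-2 and Nos2 had 4 and 0 UMIs in cKO-1 and cKO-2, against 0 and 0 UMIs in WT-1 and WT-2. Cd274, which encodes PD-L1, had 534 and 224 CPM in cKO-1 and cKO-2, against 503 and 400.0 CPM in WT-1 and WT-2, and without the deep cells 503 and 316 CPM in cKO-1 and cKO-2, against 680.4 and 538 CPM in WT-1 and WT-2, both cKO libraries then lying below. Acod1, the enzyme that makes itaconate, had 5034 and 5188 CPM in cKO-1 and cKO-2, against 3472 and 3987 CPM in WT-1 and WT-2, and 134 to 263 CPM in monocytes. Its libraries did not overlap, with cKO higher, and it did not pass the test (edgeR's log2 fold change 0.54 ± 0.42, adjusted p = 0.997). Acod1 had, with the deep cells left out, 5518 and 10345 CPM in cKO-1 and cKO-2, against 4568 and 5527 CPM in WT-1 and WT-2, so the libraries then overlapped. In the suppressive list, 5 of 8 tested members had a fold change above 0 (median 0.11). In the list of genes described in tumour-adapted neutrophils, 5 of 8 tested members had a fold change above 0 (median 0.35), and Siglecf, a marker of one such state, had 0 and 0 UMIs in cKO-1 and cKO-2, against 2 and 1 UMIs in WT-1 and WT-2. Cd14, a receptor for bacterial lipopolysaccharide, had 704 and 416 CPM in cKO-1 and cKO-2, against 521 and 1045 CPM in WT-1 and WT-2.

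Receptors and killing machinery were present, and with the deep cells the genotypes overlapped for each gene named here. Ccr1, a chemokine receptor, was found in 78 cells at 1286 and 801 CPM in cKO-1 and cKO-2, against 833 and 1161 CPM in WT-1 and WT-2, and C5ar1, the receptor for complement C5a, in 69 cells at 849 and 384 CPM in cKO-1 and cKO-2, against 833 and 632 CPM in WT-1 and WT-2. Ccr1 had, with those cells left out, 1318 and 1421 CPM in cKO-1 and cKO-2, against 1069 and 1298 CPM in WT-1 and WT-2, both cKO libraries then lying above. Clec4d, a lectin that senses fungi and mycobacteria, had 1905 and 705 CPM in cKO-1 and cKO-2, against 955 and 1200.1 CPM in WT-1 and WT-2. Cybb, the membrane subunit of the NADPH oxidase, had 158 and 1121 CPM in cKO-1 and cKO-2, against 486 and 426 CPM in WT-1 and WT-2, but 29 of the 35 UMIs in cKO-2 came from 1 cell. Leaving out the deep cells gave 177 and 474 CPM in cKO-1 and cKO-2, against 340.2 and 278 CPM in WT-1 and WT-2, still overlapping. For migration and adhesion receptors, 6 of 13 tested members had a fold change above 0 (median -0.09). The oxidative burst list gave 4 of 8 above 0, and the Fc and pattern recognition receptors 7 of 13 (medians -0.0019 and 0.11).

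Interferon-induced transcripts ranged widely between cells, and in cKO-2, with 7 neutrophils, the high end was a single cell. Type I interferons act through the transcription factor complex ISGF3, which binds the interferon-stimulated response element in front of genes such as Rsad2, which encodes the antiviral enzyme viperin, Isg15, a ubiquitin-like modifier, and Ifit3, an antiviral RNA-binding partner. A pair of GAAA repeats with 2 bases of any kind between them (GAAA, NN, GAAA) was searched on both strands in the 250 bases before the start of each gene, in RefSeq promoter windows of build GRCm38.p6. The pair was found in 8 of the 19 members of the type I interferon list that had a window (of 24), and in 3.46% of 27025 genes. A match is a description and not a site. The promoters of 3 of these members and of Cxcl10, a chemokine for T cells that led the interferon-high cells, are printed 5′ to 3′ with the matched letters in capitals. They lie at chr12:26456453-26456702 (minus strand), chr5:92348890-92349139 (minus strand), chr19:34583279-34583528 (plus strand) and chr4:156200819-156201068 (minus strand), and Isg15 has 3 matches that overlap.
Rsad2: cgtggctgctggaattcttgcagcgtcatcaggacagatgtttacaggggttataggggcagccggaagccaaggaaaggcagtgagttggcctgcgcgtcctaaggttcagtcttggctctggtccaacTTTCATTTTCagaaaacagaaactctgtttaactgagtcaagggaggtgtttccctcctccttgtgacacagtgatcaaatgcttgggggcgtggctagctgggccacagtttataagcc
Cxcl10: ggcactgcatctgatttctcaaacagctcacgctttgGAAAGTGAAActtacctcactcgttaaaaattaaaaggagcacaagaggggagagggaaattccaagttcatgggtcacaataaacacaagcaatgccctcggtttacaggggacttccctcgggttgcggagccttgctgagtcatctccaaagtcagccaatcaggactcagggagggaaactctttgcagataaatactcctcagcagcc
Ifit3: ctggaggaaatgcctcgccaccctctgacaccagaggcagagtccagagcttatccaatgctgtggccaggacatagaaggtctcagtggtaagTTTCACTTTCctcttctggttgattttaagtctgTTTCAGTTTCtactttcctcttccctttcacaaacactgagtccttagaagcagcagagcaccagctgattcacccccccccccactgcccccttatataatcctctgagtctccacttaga
Isg15: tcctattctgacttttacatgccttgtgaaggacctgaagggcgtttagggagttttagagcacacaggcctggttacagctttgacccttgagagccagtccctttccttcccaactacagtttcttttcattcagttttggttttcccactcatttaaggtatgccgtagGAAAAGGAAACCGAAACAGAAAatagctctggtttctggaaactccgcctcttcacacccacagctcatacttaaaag

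The letters TTGCNNAA, the core of the site bound by C/EBP factors, which drive granulocyte maturation, were searched in the same way. None of the 8 genes with a window among the 10 that stood highest against monocytes held them, and 10.8% of all genes did. No match says only that these letters are not in these windows.

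Per cell, the 23 measured members of the type I interferon list had a median of 67.4 UMIs per 10000 in cKO-1 and 35.0 in cKO-2, against 102 in WT-1 and 131 in WT-2. The highest cell had 750 in cKO-1 and 832 in cKO-2, against 590 in WT-1 and 556 in WT-2. Summed over cells, the list had 14581 and 10472 CPM in cKO-1 and cKO-2, against 14685 and 13743 CPM in WT-1 and WT-2. Without the deep cells it had 15711 and 20690 CPM in cKO-1 and cKO-2, against 15965 and 17137 CPM in WT-1 and WT-2, so cKO-2 was the lowest library with them and the highest without them. Rsad2 had 2657 and 2402 CPM in cKO-1 and cKO-2, against 2239 and 1548 CPM in WT-1 and WT-2, and 743 to 1022 CPM in monocytes; 64 of the 75 UMIs in cKO-2 came from 1 cell. Its libraries did not overlap, with cKO higher, and it did not pass the test (edgeR's log2 fold change 0.51 ± 0.45, adjusted p = 0.997). Slfn4, a myeloid member of the Schlafen family, was found in 75 cells at 2378 and 1761 CPM in cKO-1 and cKO-2, against 2395 and 2323 CPM in WT-1 and WT-2. Isg15 had 983 and 128 CPM in cKO-1 and cKO-2, against 642 and 761 CPM in WT-1 and WT-2. Cxcl10 had 752 and 2369.8 CPM in cKO-1 and cKO-2, against 3298 and 813 CPM in WT-1 and WT-2, of which 132 of the 190 UMIs in WT-1 came from 1 cell. In the type I list, 7 of 19 tested members had a fold change above 0 (median -0.09). In the interferon gamma and antigen presentation list, 2 of 15 tested members had a fold change above 0 (median -0.34). Irf1, a transcription factor induced by interferon gamma, had 255 and 160.1 CPM in cKO-1 and cKO-2, against 625 and 439 CPM in WT-1 and WT-2 in that list, both cKO libraries lying below both WT libraries without passing the test (edgeR's log2 fold change -1.19 ± 0.54, adjusted p = 0.997).

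**Figure D3:**
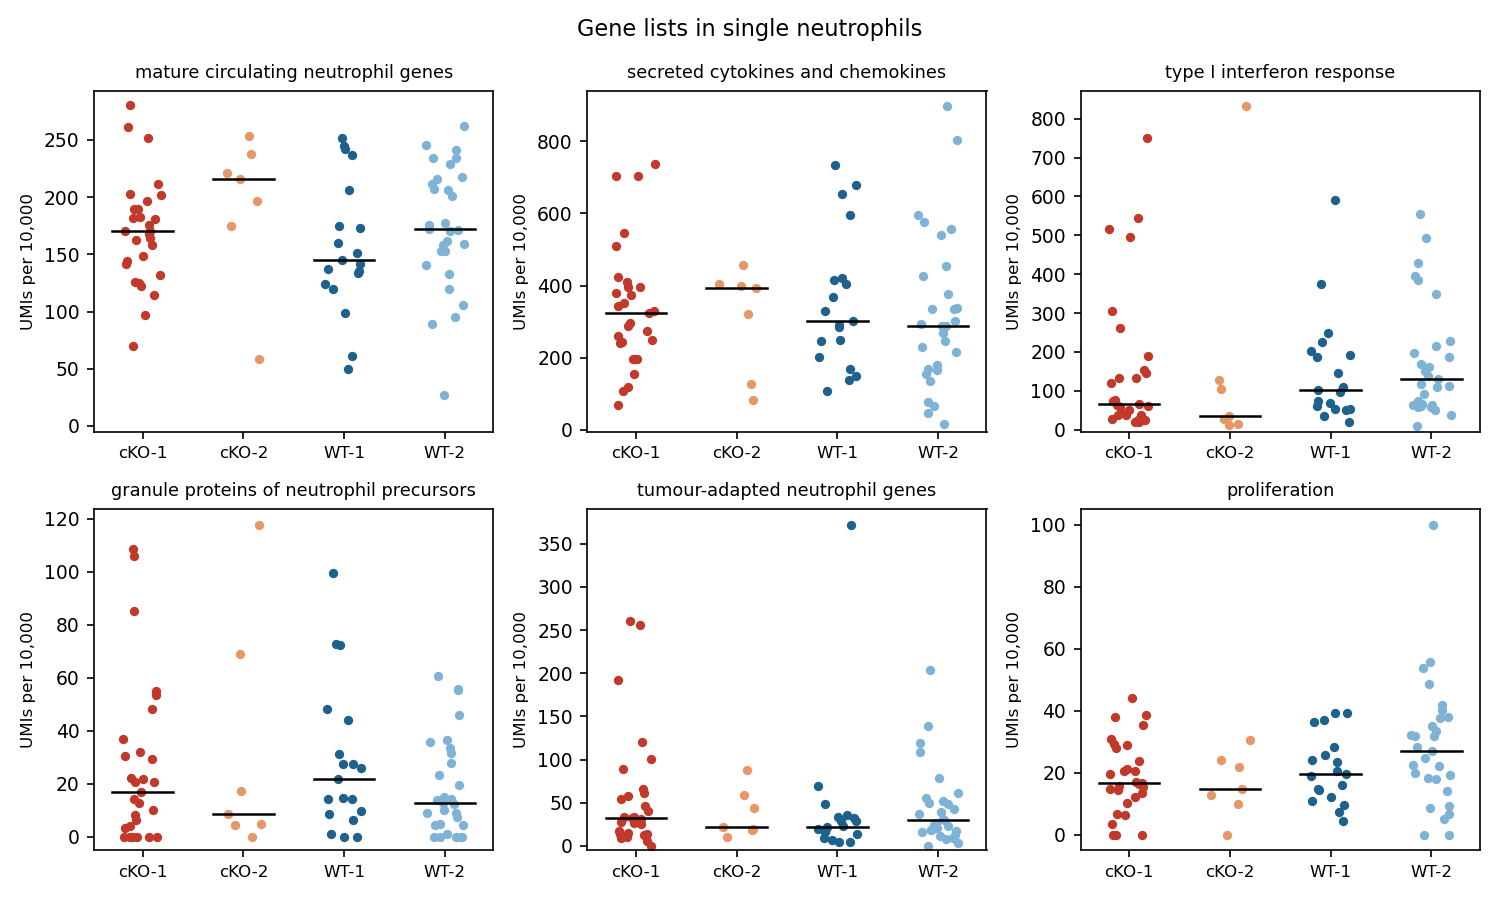
UMIs per 10000 of 6 gene lists in each neutrophil, by library, with the library median as a bar. For type I interferon genes each library holds cells from under 21 UMIs per 10000 up to 556 or more.

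Clustering the 84 cells alone, without the rule's genes, gave 2 clusters at resolution 0.5 and 6 at resolution 1. The smaller cluster at resolution 0.5 held 17 cells led by Ccl3, Cxcl10, Inhba and B930036N10Rik, the 4 genes with the largest difference from the other neutrophils, though all Inhba UMIs came from 1 cell. It took 31.0% and 28.6% of neutrophils in cKO-1 and cKO-2, against 15.8% and 10.3% in WT-1 and WT-2 (9 and 2 cells, against 3 and 3). The libraries did not overlap, and the exact permutation test gave p = 0.333, the smallest that 2 against 2 libraries allow. The same limit held for the 8 cluster shares tested at both resolutions, not all of which reached it. Without the deep cells the share was 28.6% and 33.3% in cKO-1 and cKO-2, against 17.6% and 11.1% in WT-1 and WT-2. At resolution 1, a cluster of 10 cells was led by Inhba, B930036N10Rik, Ccl3 and P4ha1 (7 and 1 cells in cKO-1 and cKO-2, against 1 and 1 in WT-1 and WT-2; exact permutation p = 0.333). A separate cluster of 12 cells led by Cxcl10, Gbp2, Gbp5 and Ifit3 held 13.8% and 14.3% of cKO-1 and cKO-2, against 10.5% and 17.2% of WT-1 and WT-2 (exact permutation p = 1). Rsad2 had a UMI in 12 of those 12 cells and in 35 of the other 72. Another 27 cells were led by Mmp8, Ly6g, Wfdc21 and Fgd4, and took 34.5% and 42.9% of cKO-1 and cKO-2, against 42.1% and 20.7% of WT-1 and WT-2. A cluster of 20 cells led by Stfa1, Steap4, Csta3 and Tnfaip6 took 13.8% and 0% of cKO-1 and cKO-2, against 26.3% and 37.9% of WT-1 and WT-2 (exact permutation p = 0.333). The other 10 cells, led by Sap130, Cxcl3, P2rx7 and Ahcyl2, were 13.8% and 14.3% of cKO-1 and cKO-2, against 5.26% and 13.8% of WT-1 and WT-2. A cluster of 5 cells, led by Siglech, Tcf4, Ly6d and Bcl11a, consisted of deep cells only. The clusters rest on few cells and are called by their leading genes, which were used to make them. At resolution 1, Inhba, P4ha1, Csta3, Sap130, Cxcl3, P2rx7, Siglech and Ly6d were each found in only 1 cell of their cluster. B930036N10Rik, Stfa1 and Ahcyl2 were each found in 2 cells of theirs, and Ccl3 in 7 of 10. These names therefore do not describe every cell of a cluster.

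**Figure D4:**
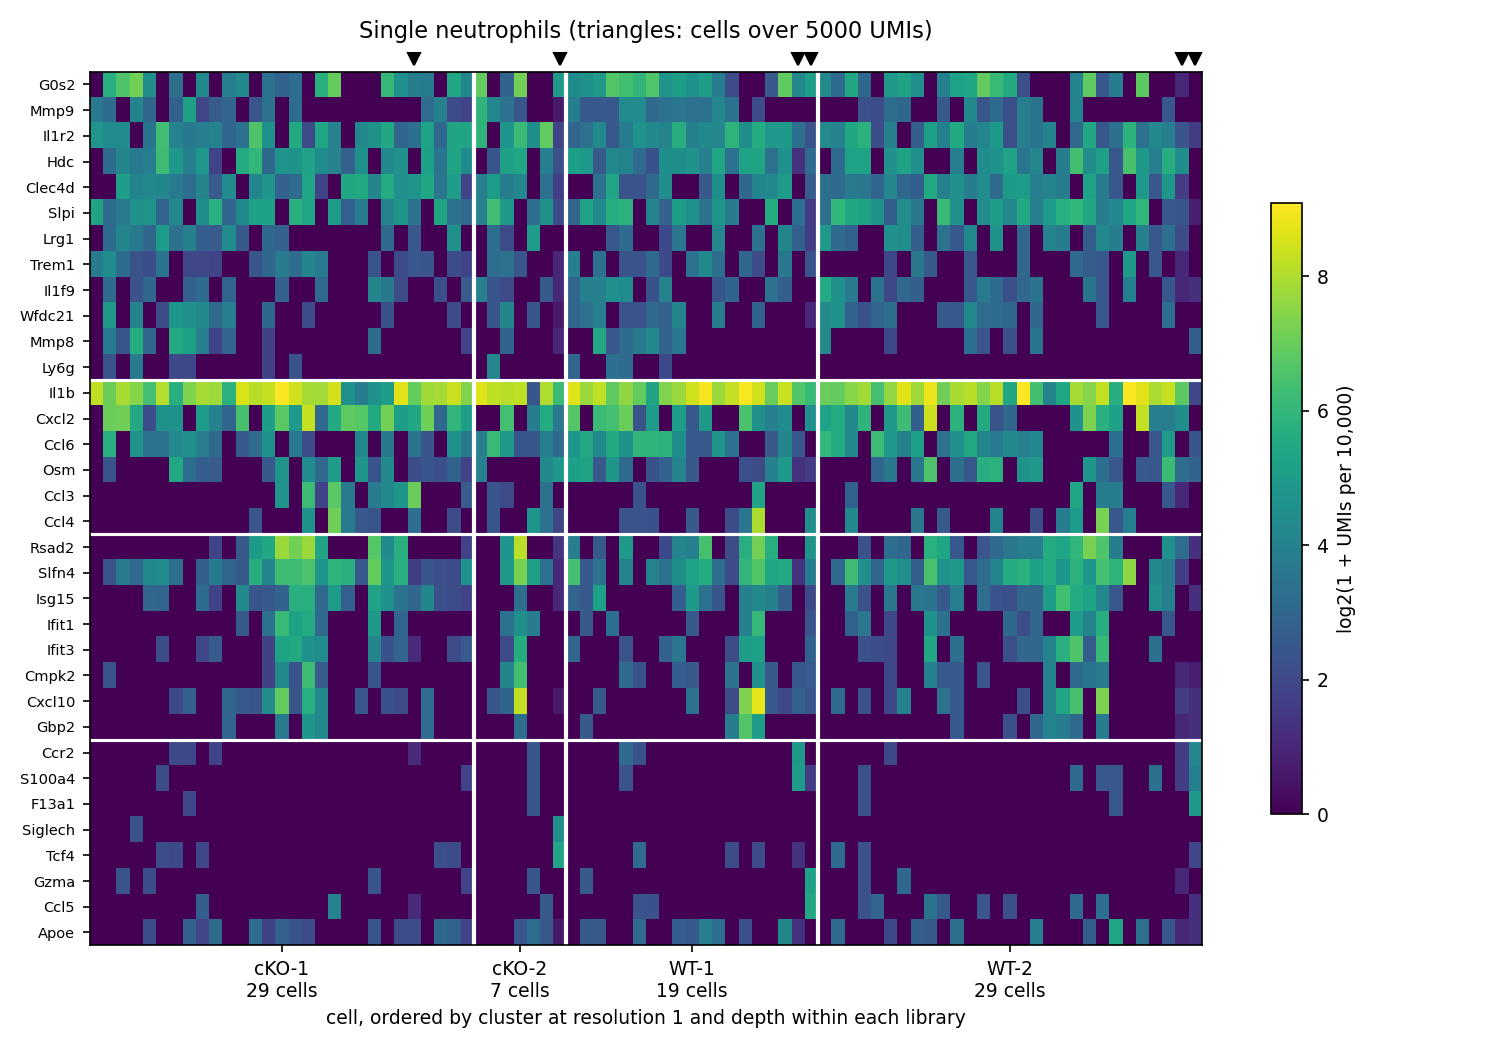
Each column is 1 neutrophil and each row a gene, coloured by log2(1 + UMIs per 10000), with cells grouped by library and ordered by cluster and depth; triangles mark the 6 cells over 5000 UMIs. Il1b is high in nearly all columns, the interferon genes are high together in 1 cell of cKO-2 and in several cells of each other library, and Siglech, Gzma and Ccr2 are high mainly in single deep cells.

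No gene passed the test between cKO and WT neutrophils. Of 1342 genes tested with edgeR's quasi-likelihood test (Benjamini-Hochberg adjustment), 0 rose and 0 fell (0.0% in either direction). At an unadjusted p under 0.05 there were 47 (3.5%), and DESeq2 called 0 (22 at an unadjusted p under 0.05). The cKO libraries were both above both WT libraries in 143 genes (10.7%) and both below them in 250 (18.6%). Over all 1342 genes tested, 680 had a fold change above 0, and the median log2 fold change was 0.01. In none of the 15 gene lists did a member pass. The lists not yet described were glycolysis and hypoxia, where 11 of 13 tested members had a fold change above 0 (median 0.41), survival and apoptosis, where 6 of 10 tested members had a fold change above 0 (median 0.19), immediate early and stress genes, where 6 of 17 tested members had a fold change above 0 (median -0.16), and Trim25, RNA sensing and VISTA, where 3 of 6 tested members had a fold change above 0 (median -0.01). Vsir, which encodes the checkpoint protein VISTA, had 121 and 192 CPM in cKO-1 and cKO-2, against 191 and 142 CPM in WT-1 and WT-2 (edgeR's log2 fold change -0.06 ± 0.71, adjusted p = 0.997). Slc2a3, a glucose transporter, had 497 and 256 CPM in cKO-1 and cKO-2, against 312 and 168 CPM in WT-1 and WT-2, and without the deep cells 462 and 553 CPM in cKO-1 and cKO-2, against 437 and 241 CPM in WT-1 and WT-2, both cKO libraries then lying above. Fos, an immediate early gene, had 4573 and 3971 CPM in cKO-1 and cKO-2, against 5746 and 6916 CPM in WT-1 and WT-2, again with both cKO libraries lower and the test not passed (edgeR's log2 fold change -0.48 ± 0.42, adjusted p = 0.997).

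The 12 genes with the smallest unadjusted p, 6 in each direction, are given as genes that did not pass. For 10 of them the cell with the most UMIs was a deep cell. S100a4, a calcium-binding protein of motile cells, had 2 and 1 UMIs in cKO-1 and cKO-2, against 24 and 28 UMIs in WT-1 and WT-2 (edgeR's log2 fold change -3.68 ± 0.78, adjusted p = 0.401). Without the deep cells it had 2 and 1 UMIs in cKO-1 and cKO-2, against 1 and 6 UMIs in WT-1 and WT-2, so the genotypes overlapped. Ccr2, the receptor that brings monocytes into tissue, had 4 and 1 UMIs in cKO-1 and cKO-2, against 22 and 28 UMIs in WT-1 and WT-2, and without the deep cells 3 and 1 UMIs in cKO-1 and cKO-2, against 3 and 1 UMIs in WT-1 and WT-2, so these also overlapped. Ccl5, a chemokine of T and NK cells, had 4 and 1 UMIs in cKO-1 and cKO-2, against 44 and 13 UMIs in WT-1 and WT-2, and 1 WT-1 cell held 42 of the 44 in that library. Tmsb10, an actin-binding peptide, had 12 and 5 UMIs in cKO-1 and cKO-2, against 33 and 62 UMIs in WT-1 and WT-2, and without the deep cells 10 and 1 UMIs in cKO-1 and cKO-2, against 9 and 19 UMIs in WT-1 and WT-2. Scaled to depth, those were 136 and 79 CPM in cKO-1 and cKO-2, against 219 and 352 CPM in WT-1 and WT-2, so both cKO libraries were still lower. Sh3bgrl and Ms4a6c were the other genes lower in cKO, and the deep WT-2 cell of 14260 UMIs held 20 of the 36 and 49 of the 75 UMIs of these genes in WT-2. The part of the deep cells in these differences was measured only by leaving them out.

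Of the genes higher in cKO, Ankrd12, an ankyrin repeat protein, had 76 and 14 UMIs in cKO-1 and cKO-2, against 9 and 15 UMIs in WT-1 and WT-2 (edgeR's log2 fold change 2.08 ± 0.55, adjusted p = 0.492), and 56 of the 76 in cKO-1 lay in the deep cell. Without the deep cells Ankrd12 had 272 and 474 CPM in cKO-1 and cKO-2, against 194 and 167 CPM in WT-1 and WT-2. Both cKO libraries were thus still higher. Ccl3, a chemokine for monocytes and lymphocytes, had 172 and 4 UMIs in cKO-1 and cKO-2, against 13 and 14 UMIs in WT-1 and WT-2, and the deep cKO-1 cell held 118 of the 172. Its libraries overlapped, and without cKO-1 its log2 fold change was -0.66. Ell2, a transcription elongation factor, was spread over more cells: it had 97 and 19 UMIs in cKO-1 and cKO-2, against 22 and 16 UMIs in WT-1 and WT-2 in 38 cells, with at most 15 UMIs in 1 cell (edgeR's log2 fold change 1.74 ± 0.53, adjusted p = 0.817). Without the deep cells it had 97 and 5 UMIs in cKO-1 and cKO-2, against 22 and 16 UMIs in WT-1 and WT-2, or 1318 and 395 CPM in cKO-1 and cKO-2, against 535 and 297 CPM in WT-1 and WT-2, so the libraries then overlapped. Btbd9 had 43 and 18 UMIs in cKO-1 and cKO-2, against 11 and 13 UMIs in WT-1 and WT-2, and without the deep cells 41 and 5 UMIs in cKO-1 and cKO-2, against 5 and 12 UMIs in WT-1 and WT-2. Scaled to depth, those were 557 and 395 CPM in cKO-1 and cKO-2, against 121 and 223 CPM in WT-1 and WT-2, so both cKO libraries were still higher. Lcorl and Uvrag completed the 6, and the deep cKO-2 cell held 27 of the 31 Uvrag UMIs of that library. Without the deep cells Lcorl had 340 and 158 CPM in cKO-1 and cKO-2, against 0 and 55.6 CPM in WT-1 and WT-2. Uvrag then had 177 and 316 CPM in cKO-1 and cKO-2, against 48.6 and 111 CPM in WT-1 and WT-2. For both genes the cKO libraries were still higher, on few UMIs (for Lcorl 25 and 2 in cKO-1 and cKO-2, against 0 and 3 in WT-1 and WT-2). Once the deep cells were left out, 6 of the 12 genes were still abundant enough to be tested, and their adjusted p was 0.999 in edgeR for each. Of these, 3 had an unadjusted p under 0.05 in edgeR (Ell2, Ccl3 and Btbd9, with log2 fold changes of 1.34, 1.14 and 1.53).

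**Figure D5:**
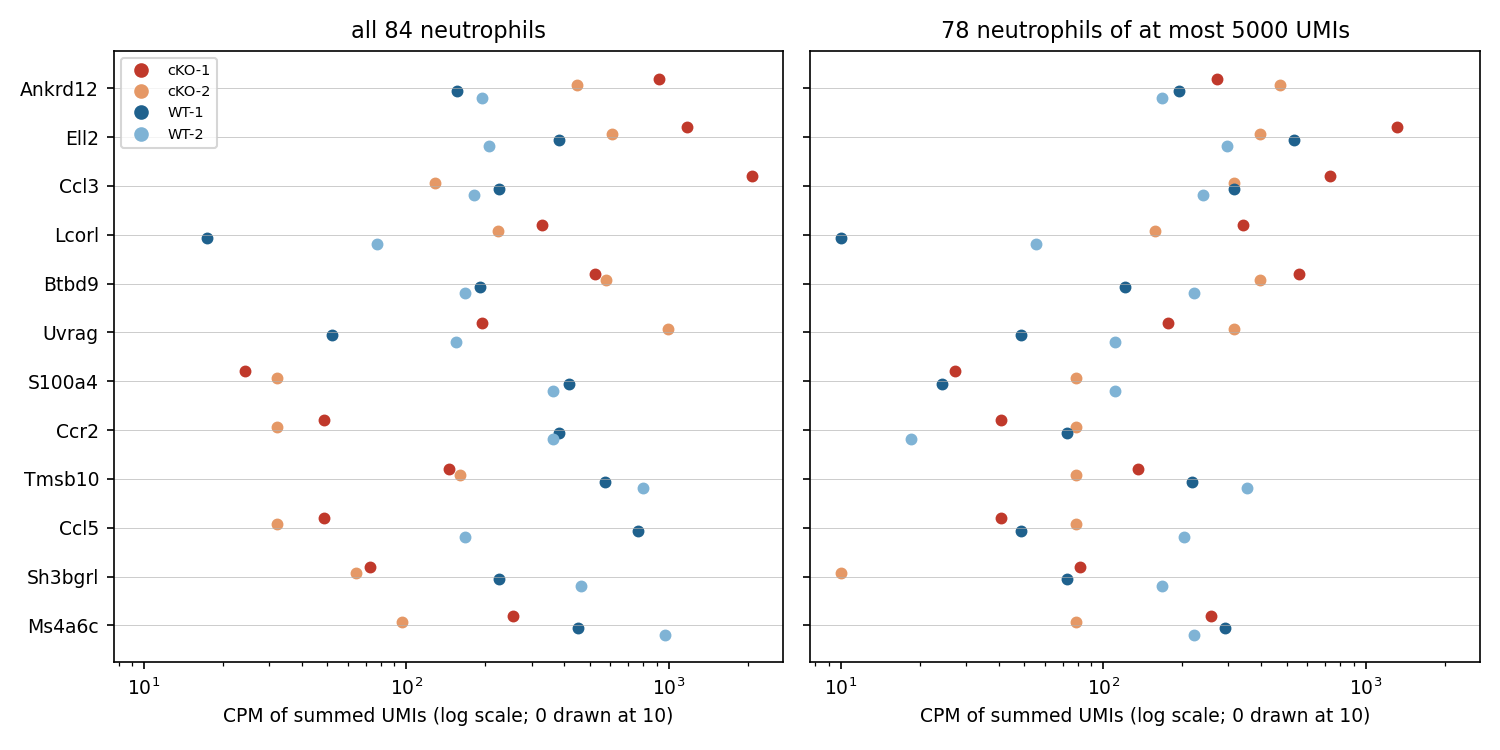
CPM of the summed UMIs on a log scale for the 12 genes with the smallest unadjusted p between cKO and WT, over all 84 neutrophils (left) and over the 78 of at most 5000 UMIs (right), with 1 point per library and 0 drawn at 10. S100a4 and Ccr2 separate the genotypes on the left and overlap on the right.

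The genotype difference was also compared between neutrophils and monocytes, by an edgeR interaction term in a model that also held the library. Of 13179 genes, 0 passed in either direction (0.0%), and 204 had an unadjusted p under 0.05 (1.55%).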

How the data were processed

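The authors deposited raw UMI counts per gene and cell, from Chromium 3′ v3 libraries per the labels' protocols; the submitters' processing notes name Cell Ranger, STAR and build mm10, with no version. Barcodes are 20 letters long, which is not the barcode length of that kit, so the platform could not be settled here. Members, gene lists and tests were chosen with earlier results of these data known. Counts were summed per library over the kept cells and tested with edgeR 4.0.16 (TMM, filterByExpr, quasi-likelihood F test, Benjamini-Hochberg, threshold 0.05, two-sided) in R 4.3.3; DESeq2 1.42.0 was an alternative. The 12 genes the rule uses were given no test. The edgeR steps were also run on simulated library sums. Those were not built from single cells, so they do not show how the test behaves where deep cells dominate a sum. Monocytes had S100a8 and S100a9 under 20 UMIs, no Retnlg, at least 1 of Csf1r and at least 2 of Ly6c2 and Ccr2. Clustering used scanpy 1.11.5 and Leiden (2000 variable genes, 20 components, 15 neighbours). Scrublet's automatic threshold marked 1 cell in WT-2 and 0 in the others, so it had not worked and no doublet was removed. Libraries were compared in pairs by chi-square per degree of freedom (3.00 to 6.20), and none repeated another. List genes Aldoa, BC100530, Clec7a and Mx1 had no unique row and were not used here. Genes were named by rule: the smallest p when few passed (6 each way, at least 50 CPM), Trim25 and Vsir, the 4 leading members of each list, the 20 highest in neutrophils and the 10 highest against monocytes (at least 100 CPM); other genes, such as Arg1, Irf1, Elane, Cybb and the deep cells' markers, were chosen after their values were seen. 1 gene that the rule names is not reported here. Alternatives covered the gate, quality limits, scaling, filter, replicate block, left-out libraries and, added after seeing the data, deep cells, the C1q limit and thinning.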

Additional observations from a re-analysis of the deposited data

How the results depend on the processing

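The number of genes called between cKO and WT neutrophils rested on single libraries. Leaving out 1 library gave 0 to 43 higher and 0 to 21 lower: 43 and 21 when cKO-1 was left out, 18 and 11 for cKO-2, 1 and 1 for WT-1, and 0 and 0 for WT-2, the lone library of a group then being assumed to vary like the others. Without the low count filter 9 were higher and 3 lower, and without the C1q limit 3 were lower. With the replicate number as a block in edgeR, 0 were higher and 2 lower (S100a4 and Ccl5, adjusted p = 0.0400 each). Same-numbered libraries deviated with r = -0.0831 over genes. With 2 libraries per genotype this is a single value, so it cannot decide whether the numbers pair them. The other gates, scalings and DESeq2 gave 0 in both directions. For the interaction, leaving out 1 library gave 0 to 20 higher and 0 to 18 lower, and library size alone gave 1 lower. Against monocytes, leaving out 1 library gave 251 to 553 higher and 321 to 767 lower. Without the deep cells 662 were higher and 1422 lower, against 462 and 935 with them. The number of clusters was 6 at resolution 1. The difference in share ranged from -0.138 to 0.141 percentage points when 1 library was left out. For the 12 named genes, 122 of 143 values kept their direction and side of the threshold, 20 now passed it, and Ccl3 reversed, its log2 fold change running from -0.66 without cKO-1 to 3.46 without cKO-2. The cause was not tested. In the neutrophil sums a count of 0 allows a level of up to 36.4 to 96.1 CPM, depending on the library. A gene without a UMI could therefore still be expressed below that level.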

Other observations

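The 46 cells that failed the C1q limit alone numbered 18 and 3 in cKO-1 and cKO-2, against 8 and 17 in WT-1 and WT-2, and their median depth was 2392 to 3027 UMIs. Their sums held neutrophil genes: Hdc, which makes histamine, had 2370 and 1438 CPM in cKO-1 and cKO-2, against 1877 and 1733 CPM in WT-1 and WT-2. G0s2 had 4421 and 719 CPM in cKO-1 and cKO-2, against 1321 and 3572 CPM in WT-1 and WT-2. Of 4 macrophage genes looked at, 2 were higher in these cells than in the neutrophils kept by the rule in each library. Apoe, a lipid carrier, had 279 and 160.1 CPM in cKO-1 and cKO-2, against 330 and 336 CPM in WT-1 and WT-2 in the kept neutrophils, and 1026 and 958 CPM in cKO-1 and cKO-2, against 1460.2 and 1177 CPM in WT-1 and WT-2 in the cells that failed. Ms4a7, a macrophage membrane protein, had 60.7 and 0 CPM in cKO-1 and cKO-2, against 86.8 and 38.7 CPM in WT-1 and WT-2 in the kept neutrophils, and 318 and 119.8 CPM in cKO-1 and cKO-2, against 301 and 128 CPM in WT-1 and WT-2 in the cells that failed. Adgre1, which encodes F4/80, was higher in the cells that failed in 3 libraries and lower in WT-2 (155 CPM in the kept neutrophils, 107 CPM in the cells that failed). Mrc1, the mannose receptor, was at 0 in the kept neutrophils, and in the cells that failed it had 17.7 and 0 CPM in cKO-1 and cKO-2, against 46.4 and 0 CPM in WT-1 and WT-2. The part of macrophage RNA in these sums was not tested.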
